A study of Mus musculus with 14 samples.

Results

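The expression of 7 genes of proximal tubule protein endocytosis (Lrp2, Cubn, Amn, Dab2, Clcn5, Ocrl, and Fcgrt) was examined in the kidneys of diabetic and nondiabetic mice with and without complement factor B (CFB). The genes were found by their symbols, and each of the 7 had a row among the 21878 genes of all 14 mice. Kidney RNA from male C57BL/6J mice was sequenced in 4 groups, named here from the sample titles. WT diabetic mice (n = 4) and Cfb-/- diabetic mice (n = 4) received a high-fat diet (60% of calories from fat) and then streptozotocin (STZ, 60 mg/kg on 5 days), which destroys insulin-producing beta cells. WT control mice (n = 3) and Cfb-/- control mice (n = 3) received chow (10% of calories from fat) and citrate buffer. According to the methods, mice entered at 8 weeks of age, were killed 21 weeks after STZ, and carried a Cfb deletion in every cell where the genotype was Cfb-/-. The labels state 34 weeks and no starting point, call the deletion a knockdown, and repeat the diabetic treatment for the control mice. All groups share the background strain and sex, and the Cfb-/- groups differ from the WT groups in the deletion throughout life.

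Endocytosis in the proximal tubule recovers albumin, vitamin-binding proteins, hormones, and other small proteins that pass the glomerular filter. Lrp2 encodes megalin, a giant receptor of the low density lipoprotein (LDL) receptor family on the brush border. Cubn encodes cubilin, a second receptor without a membrane-spanning part, which needs amnionless, the product of Amn, to reach the membrane. Dab2 encodes an adaptor that links the megalin tail to the clathrin coat and to motor proteins. Clcn5 encodes the chloride-proton exchanger ClC-5 of early endosomes, and Ocrl encodes an inositol polyphosphate 5-phosphatase of endosomes. Loss of either causes tubular proteinuria in people, as Dent disease or Lowe syndrome. Fcgrt encodes the heavy chain of the neonatal Fc receptor, which pairs with beta-2-microglobulin and returns albumin and IgG from acidic endosomes.

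With the values as deposited, Amn, Dab2, and Fcgrt were the genes called lower (limma, adjusted p under 0.05) in diabetic than in control mice of both genotypes. Lrp2 also had a lower mean in diabetic mice of both genotypes but was called only in Cfb-/- mice. The 250 bases before the transcription starts of Amn, Dab2, and Fcgrt are therefore shown, 5′ to 3′ on the strand of the gene (RefSeq, GRCm38.p6). The capitals mark a CACGTG E-box or a GTTAAT hepatocyte nuclear factor 1 (HNF1) half-site, which were searched on both strands together with the hepatocyte nuclear factor 4 (HNF4) motif CAAAGTCCA, and no matches overlapped.
Amn: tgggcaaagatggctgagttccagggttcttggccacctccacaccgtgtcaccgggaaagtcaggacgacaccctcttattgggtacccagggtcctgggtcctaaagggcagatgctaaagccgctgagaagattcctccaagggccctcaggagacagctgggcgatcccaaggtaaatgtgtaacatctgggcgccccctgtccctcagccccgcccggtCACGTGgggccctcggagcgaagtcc
Fcgrt: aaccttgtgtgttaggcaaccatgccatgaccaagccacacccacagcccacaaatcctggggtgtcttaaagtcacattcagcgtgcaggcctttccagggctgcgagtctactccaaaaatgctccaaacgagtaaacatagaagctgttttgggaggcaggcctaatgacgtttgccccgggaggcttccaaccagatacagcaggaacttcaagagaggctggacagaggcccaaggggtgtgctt
Dab2, upstream start: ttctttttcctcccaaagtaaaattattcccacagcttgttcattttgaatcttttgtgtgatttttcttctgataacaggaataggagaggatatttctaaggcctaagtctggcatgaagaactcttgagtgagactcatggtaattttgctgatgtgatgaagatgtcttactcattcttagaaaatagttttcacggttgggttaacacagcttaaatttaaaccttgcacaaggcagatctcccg
Dab2, downstream start: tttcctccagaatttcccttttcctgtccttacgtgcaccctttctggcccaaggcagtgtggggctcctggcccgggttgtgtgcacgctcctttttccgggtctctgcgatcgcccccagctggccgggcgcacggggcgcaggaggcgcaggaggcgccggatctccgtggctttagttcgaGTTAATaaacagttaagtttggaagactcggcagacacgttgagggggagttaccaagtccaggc
The Amn window is chr12:111270846-111271095 on the + strand, and the Fcgrt window is chr7:45103823-45104072 on the - strand. The Dab2 windows are chr15:6299539-6299788 and chr15:6386498-6386747 on the + strand, before an upstream and a downstream start of this gene. The Amn window held the E-box from 26 to 21 bases before the start, and the downstream Dab2 window held the HNF1 half-site from 65 to 60 bases before the start. Among 32851 windows of 250 bases before annotated starts, 6.02% held the E-box, 6.43% the HNF1 half-site, and 0.384% the HNF4 motif. The Fcgrt window and the upstream Dab2 window held none of these motifs, and neither did any window of Lrp2, Cubn, Clcn5, or Ocrl. The GC content was 61.2% for Amn, 53.2% for Fcgrt, and 36.8% and 60% for the upstream and downstream Dab2 windows, beside a median of 52.4% over all windows.

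The 7 genes lie on 5 chromosomes (GRCm38.p6). Lrp2 (chr2:69424335-69586029) and Cubn (chr2:13276338-13491876) lie on the - strand of chromosome 2, Fcgrt (chr7:45092993-45103822) on the - strand of chromosome 7, and Amn (chr12:111271096-111276426) on the + strand of chromosome 12. Dab2 (chr15:6299788-6440715) lies on the + strand of chromosome 15, and Clcn5 (chrX:7153810-7319358, - strand) and Ocrl (chrX:47912418-47966428, + strand) lie on the X chromosome. There is 1 value per gene and mouse, so exons and transcript forms are not separated.

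All values are FPKM (fragments scaled to transcript length and to the mapped fragments of the mouse). This scaling brings genes to a level per length. The signal still varied with transcript length from mouse to mouse, as given below, so levels of genes of unlike length compare only roughly. Fold changes are on the log2(FPKM + 0.1) scale, from a limma fit across 14912 genes in all 14 mice, and adjusted p values are Benjamini-Hochberg values over all those genes. These p values measure the spread between mice. Cfb was 56.7 to 130.7 FPKM in the 7 WT mice and 1.13 to 2.22 FPKM in the 7 Cfb-/- mice, so the genotype labels matched the targeted gene in every mouse. In bulk kidney RNA, fewer proximal tubule cells and less RNA per proximal tubule cell cannot be told apart. Of 20 proximal tubule markers, 14 fell and 0 rose in WT diabetic mice (median log2 change -0.95), and 15 fell and 0 rose in Cfb-/- diabetic mice (median -1.05). They include Slc34a1, the phosphate cotransporter of this segment, which fell by 1.34 and by 1.29 on the log2 scale, and Slc5a2, its glucose cotransporter, which fell by 2.99 (adjusted p = 0.000385) in WT and also fell in Cfb-/- mice (adjusted p = 0.00713). All 12 markers of injured tubule rose in diabetic mice of both genotypes, with Havcr1, which encodes kidney injury molecule 1, up by 5.53 and 4.37. The part of these shifts in the results for the endocytosis genes was not tested. A fit with the marker mean as a covariate is given with the results. It cannot separate the loss of markers from diabetes, because the marker mean did not overlap between control and diabetic mice.

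The mice also differed in how much signal long and short transcripts carried. The slope of the log2 deviation on transcript length was -0.371 per doubling in WT control mouse 2, -0.119 in WT control mouse 3, and between -0.078 and 0.140 in the other 12 mice. In WT control mouse 2, genes with a longest transcript of 8000 bases or more were 0.91 lower (a median log2 deviation of -0.91) and genes under 1000 bases were 0.56 higher than the mean of all mice. Lrp2 (15460 bases), Cubn (11262 bases), and Clcn5 (8390 bases) are long, Ocrl (5253 bases) and Dab2 (4663 bases) are intermediate, and Fcgrt (1770 bases) and Amn (1701 bases) are short. Results for Lrp2, Cubn, and Clcn5 in comparisons that use WT control mouse 2 are therefore given also without it. They are also given after a length trend was removed from each mouse, a step chosen after this difference was seen.

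**Figure D1:**
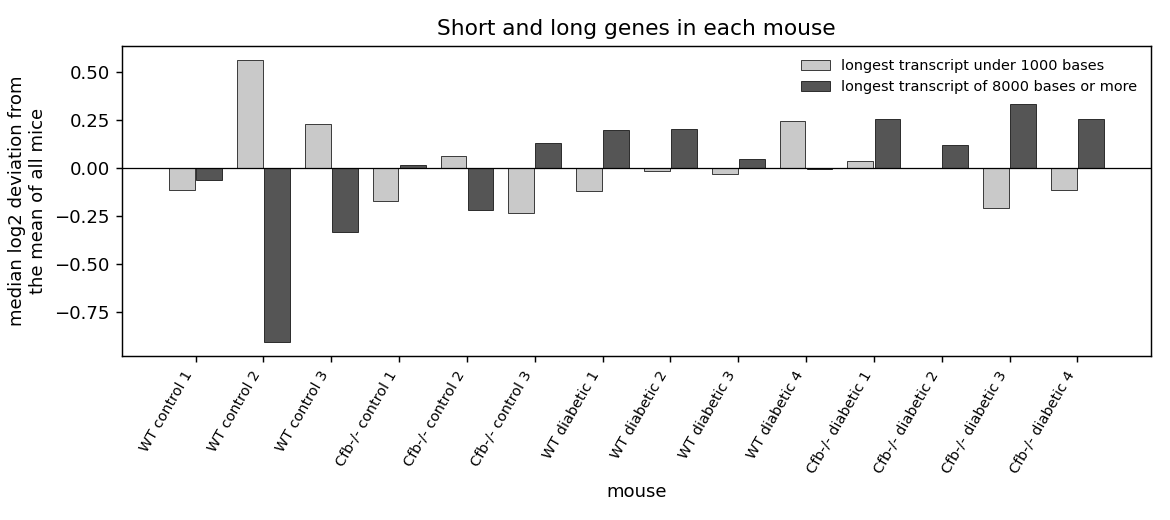
Median log2 deviation from the mean of all mice (y axis) of genes with a longest transcript under 1000 bases (light bars) and of 8000 bases or more (dark bars), in each of the 14 mice (x axis), for genes with a mean of at least 1 FPKM. WT control mouse 2 stands apart, at 0.56 for short and -0.91 for long genes.

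The levels of the 7 genes spanned from 2.12 FPKM for Ocrl to 124 FPKM for Amn in WT control mice. In WT control mice Amn had 124 ± 29.9 FPKM (SD, n = 3), Fcgrt 118 ± 18.5, Lrp2 108 ± 27.9, and Dab2 90.2 ± 8.51, and the neighbours in this order overlapped between mice. Cubn (28.6 ± 6.93 FPKM), Clcn5 (10.6 ± 2.22 FPKM), and Ocrl (2.12 ± 0.615 FPKM) followed without overlap between neighbours. The same bottom order of Cubn, Clcn5, and Ocrl, with no overlap, was found in each of the 4 groups. Lrp2 came first in the other 3 groups, and without WT control mouse 2 it came first in WT control mice as well. Only in Cfb-/- control mice was Lrp2 (141 ± 18.4 FPKM) above its next neighbour, Dab2 (85.5 ± 12.0 FPKM), in every mouse. Neighbours among the top 4 overlapped in all other cases.

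Lrp2, the megalin gene, varied by a factor of 3.14 between the lowest and highest of the 14 mice. Its level was 136, 79.9, and 109 FPKM in WT control mice 1 to 3 and 88.6, 105.4, 82.5, and 65.3 FPKM in WT diabetic mice 1 to 4. It was 156, 120.2, and 145 FPKM in Cfb-/- control mice, against 56.5, 49.7, 119, and 115 FPKM in Cfb-/- diabetic mice. The WT groups overlapped. All 4 Cfb-/- diabetic mice were below the 3 Cfb-/- control mice, but mice 3 and 4 were only just below, and mice 1 and 2 were far below. Mice 1 and 2 also had the lowest mean log2 level of proximal tubule markers of all 14 mice, 6.86 and 7.29, against 7.44 to 7.92 in the other 6 diabetic mice and 8.57 to 8.81 in the control mice. They had the highest mean log2 level of injured tubule markers, 6.04 and 5.79, with a near tie for WT diabetic mouse 4 (5.79), which had the lowest Lrp2 of the WT mice.

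Cubn, the cubilin gene, had 36.6, 24.5, and 24.7 FPKM in WT control mice, against 29.9, 40.7, 31.0, and 23.8 FPKM in WT diabetic mice. It had 39.4, 30.3, and 47.5 FPKM in Cfb-/- control mice, against 19.2, 16.9, 43.1, and 39.9 FPKM in Cfb-/- diabetic mice. The groups overlapped in both genotypes, and again Cfb-/- diabetic mice 1 and 2 were the lowest of all mice. The ratio of Cubn to Lrp2 FPKM was 0.226 to 0.307 in WT control, 0.252 to 0.327 in Cfb-/- control, 0.338 to 0.387 in WT diabetic, and 0.340 to 0.361 in Cfb-/- diabetic mice. Diabetic mice thus had more Cubn per Lrp2 than control mice of their genotype, without overlap. The share of all gene pairs with such a ratio was not computed. Of single genes, 45.3% in WT and 42.2% in Cfb-/- mice had diabetic and control groups without overlap. In this ratio, mice 1 and 2 of the Cfb-/- diabetic group, at 0.340 each, were close to mice 3 and 4 at 0.361 and 0.348.

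Amn, which encodes the membrane partner of cubilin, had 94.7, 154, and 124 FPKM in WT control mice, against 65.0, 61.3, 62.9, and 69.5 FPKM in WT diabetic mice. It had 79.7, 103, and 72.0 FPKM in Cfb-/- control mice, against 49.1, 60.8, 60.4, and 66.8 FPKM in Cfb-/- diabetic mice. Every diabetic mouse was below every control mouse, and the share of all genes with this pattern over both genotypes was not computed. The coefficient of variation was 5.49% in WT and 12.5% in Cfb-/- diabetic mice, against 24.0% in WT control and 18.9% in Cfb-/- control mice. This difference in spread was not tested. The ratio of Amn to Cubn ranged from 1.40 to 3.59 in the 8 diabetic mice and from 1.52 to 6.30 in the 6 control mice, with the value of 6.30 in WT control mouse 2.

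Dab2, the adaptor gene, had 97.1, 80.7, and 92.9 FPKM in WT control mice, against 73.1, 65.1, 58.4, and 62.2 FPKM in WT diabetic mice. It had 99.2, 76.8, and 80.4 FPKM in Cfb-/- control mice, against 51.6, 56.4, 75.3, and 63.9 FPKM in Cfb-/- diabetic mice. Again no diabetic mouse reached the lowest control mouse of its genotype. Fcgrt, the Fc receptor gene, had 100.5, 137, and 116 FPKM in WT control mice, against 66.2, 64.9, 71.8, and 76.5 FPKM in WT diabetic mice. It had 88.0, 79.9, and 77.9 FPKM in Cfb-/- control mice, against 58.0, 62.6, 68.0, and 69.0 FPKM in Cfb-/- diabetic mice. All 3 Cfb-/- control mice lay between the WT control mice and the 8 diabetic mice, and the share of all genes in such an order was not computed.

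Clcn5, the endosomal exchanger gene, had 12.9, 8.50, and 10.4 FPKM in WT control mice, against 13.1, 14.5, 9.98, and 9.86 FPKM in WT diabetic mice. It had 13.4, 11.6, and 15.4 FPKM in Cfb-/- control mice, against 12.3, 10.5, 16.5, and 14.8 FPKM in Cfb-/- diabetic mice. All 4 groups overlapped. Ocrl, the phosphatase gene, was the lowest of the 7 and had 2.48, 1.41, and 2.48 FPKM in WT control mice, against 3.76, 3.85, 3.03, and 3.80 FPKM in WT diabetic mice. It had 3.04, 2.67, and 3.38 FPKM in Cfb-/- control mice, against 4.05, 3.82, 3.69, and 3.35 FPKM in Cfb-/- diabetic mice. All 3 WT control mice were below every mouse of the other groups, whereas the Cfb-/- control and Cfb-/- diabetic mice overlapped. How many of all genes set the WT control mice apart in this way was not computed.

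**Figure D2:**
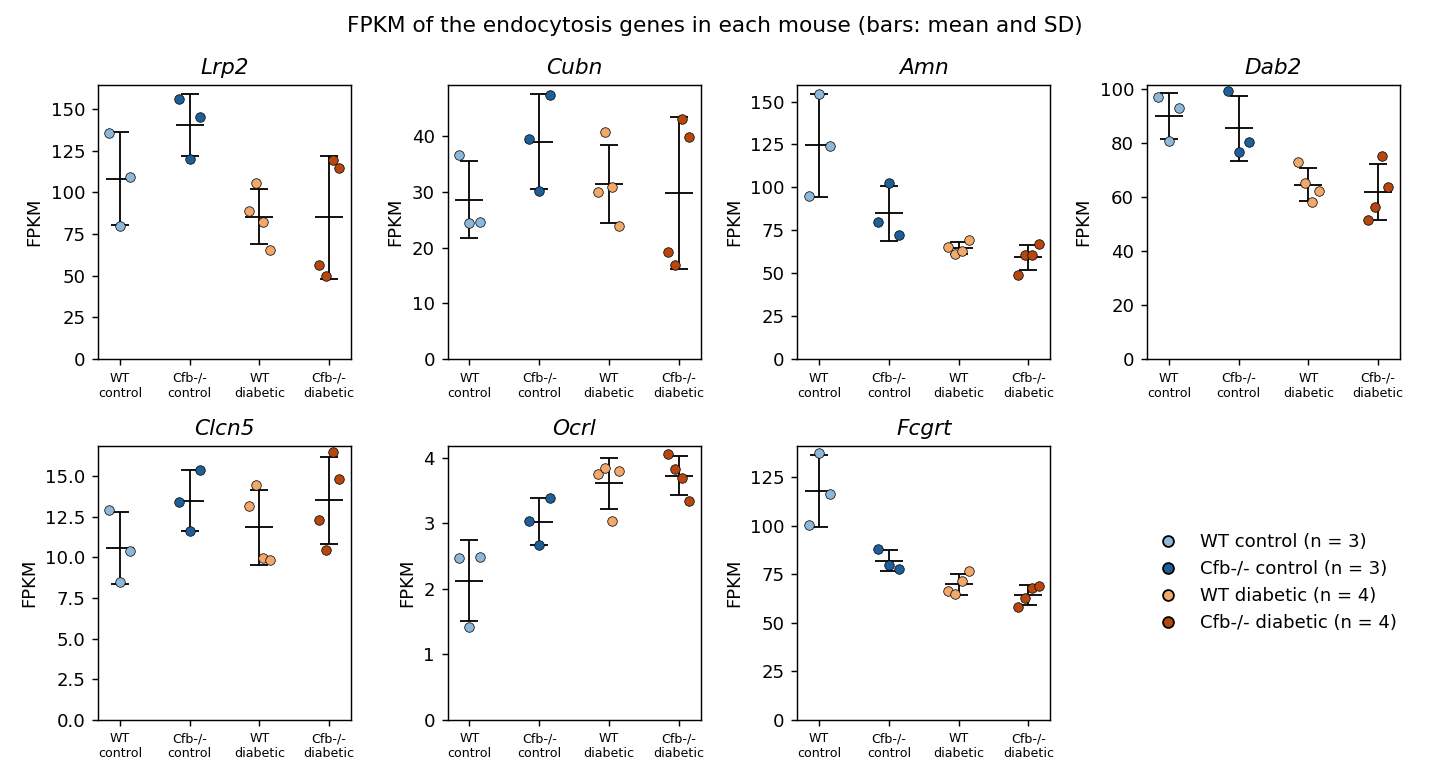
FPKM (y axis, from 0) of each endocytosis gene in each mouse, by group (x axis), with the mean and SD as bars. Amn, Dab2, and Fcgrt sit lower in all diabetic mice than in the control mice of the same genotype, and Lrp2 and Cubn split the Cfb-/- diabetic mice into a low pair (mice 1 and 2) and a high pair.

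To ask how diabetes changed these genes with CFB present, WT diabetic mice were compared with WT control mice. Amn, Dab2, and Fcgrt fell and Ocrl rose, and the receptor genes Lrp2 and Cubn and the exchanger gene Clcn5 did not pass the test. Thus 4 of 7 genes were called at an adjusted p under 0.05, 3 lower and 1 higher, where 46.1% of all genes tested were called, 9.97% lower and 36.2% higher. Amn fell by 0.92 on the log2 scale (SE 0.16, adjusted p = 0.000445), and Fcgrt fell by 0.75 (SE 0.11, adjusted p = 0.000142). Dab2 fell by 0.48 (SE 0.13, adjusted p = 0.0106), and Ocrl rose by 0.77 (SE 0.18, adjusted p = 0.00344). The groups did not overlap for these 4 genes, as for 45.3% of all genes, 9.84% with the diabetic mice lower and 35.5% with them higher. The changes correspond to 0.530, 0.596, 0.717, and 1.71 times the control level. None of the 7 reached the study's own criteria of an unadjusted p under 0.05 with a fold change over 2 or under 0.5, which 17.5% of all genes met.

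Lrp2 had a log2 change of -0.33 in this comparison (95% interval -0.95 to 0.29, adjusted p = 0.361), Cubn one of 0.13 (-0.52 to 0.79, adjusted p = 0.740), and Clcn5 one of 0.16 (-0.24 to 0.56, adjusted p = 0.497). These values depended on how the mice were brought to one scale. Over all genes the median log2 change was 0.29 with the values as deposited, 0.03 after median-ratio scaling, -0.05 after quantile normalization, and -0.02 after the length trend was removed. The share of called genes that were higher moved from 78.4% to 50.2%, 44.2%, and 45.9%. Relative to the median of all genes, Lrp2 was at -0.62, Cubn at -0.15, Clcn5 at -0.13, Dab2 at -0.77, Fcgrt at -1.03, Amn at -1.20, and Ocrl at 0.49. With the length trend removed, Lrp2 was -1.10 (adjusted p = 0.00163) and Clcn5 -0.38 (adjusted p = 0.0290), both called, while Cubn was -0.51 (adjusted p = 0.130). Median-ratio scaling also turned Cubn (-0.15) and Clcn5 (-0.12) below 0, with neither called, and left Lrp2 at -0.61 (adjusted p = 0.106). Without WT control mouse 2, Lrp2 was -0.53 (adjusted p = 0.224), Cubn 0.04, and Clcn5 0.01, and the same 4 genes were called, where 32.1% of all genes were. In that fit Amn was -0.75, Fcgrt -0.63, and Ocrl 0.52, each closer to 0 than with all mice, and Dab2 was -0.56. Over the fits that each left out 1 mouse, Lrp2 ranged from -0.53 to -0.15, the latter without WT control mouse 1 (adjusted p = 0.718), and it was called in none of them.

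Amn and Fcgrt were called lower and kept their direction under the 4 scalings. Dab2 was not called after quantile normalization (log2 change -0.33, adjusted p = 0.1001), and Ocrl was not called there either (0.29, adjusted p = 0.0784). By the exact two-sided permutation test over mice, the smallest p that 4 mice against 3 allow is 0.0571, and Amn, Dab2, Ocrl, and Fcgrt each reached it. After adjustment over 28 tests (7 genes in 4 comparisons) the lowest p was 0.2.

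The same question was asked without CFB, in Cfb-/- diabetic against Cfb-/- control mice. Lrp2, Amn, Dab2, and Fcgrt fell, and Cubn, Clcn5, and Ocrl did not pass the test. These are 4 of 7 genes, all lower, where 33.8% of all genes tested were called, 6.4% lower and 27.4% higher. Lrp2 fell by 0.83 on the log2 scale (SE 0.29, adjusted p = 0.0390), to 0.564 times the control level. Amn fell by 0.51 (SE 0.16, adjusted p = 0.0228), Dab2 fell by 0.47 (SE 0.13, adjusted p = 0.0142), and Fcgrt fell by 0.35 (SE 0.11, adjusted p = 0.0249). Cubn had a log2 change of -0.49 (95% interval -1.14 to 0.16, adjusted p = 0.237), Clcn5 one of -0.01 (-0.41 to 0.39), and Ocrl one of 0.29 (-0.09 to 0.68, adjusted p = 0.225). None met the study's criteria, which 14.9% of all genes met. Those 4 genes were also the ones whose groups did not overlap, where 42.2% of all genes had groups without overlap and 8.64% had them with the diabetic mice lower and 33.6% with them higher.

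These calls rested on single mice more than those in WT mice. Lrp2 was not called without Cfb-/- diabetic mouse 1 (log2 change -0.67) or 2 (-0.61), or without any one of the 3 Cfb-/- control mice, and it was not called in the fit of these 2 groups alone (adjusted p = 0.0680), without a filter (adjusted p = 0.0564), or after quantile normalization (adjusted p = 0.0829). Of the 7 genes, 1 was called without Cfb-/- diabetic mouse 1, 2 without mouse 2, 1 without Cfb-/- control mouse 1, 1 without Cfb-/- control mouse 2, and 3 without Cfb-/- control mouse 3. In the same order, 26%, 26.9%, 27.9%, 24.9%, and 30.2% of all genes were called, against 33.8% with all mice. Dab2 was called in 6 of the 7 fits that each left out 1 mouse, Amn in 5, Fcgrt in 3, and Lrp2 in 2. With the length trend removed, 5 of the 7 genes were called, where 37.8% of all genes were, with Lrp2 at -1.19 (adjusted p = 0.00115) and Cubn at -0.82 (adjusted p = 0.0259). Ocrl was 0.06 after median-ratio scaling and -0.09 after quantile normalization, so its direction depended on the scaling.

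**Figure D3:**
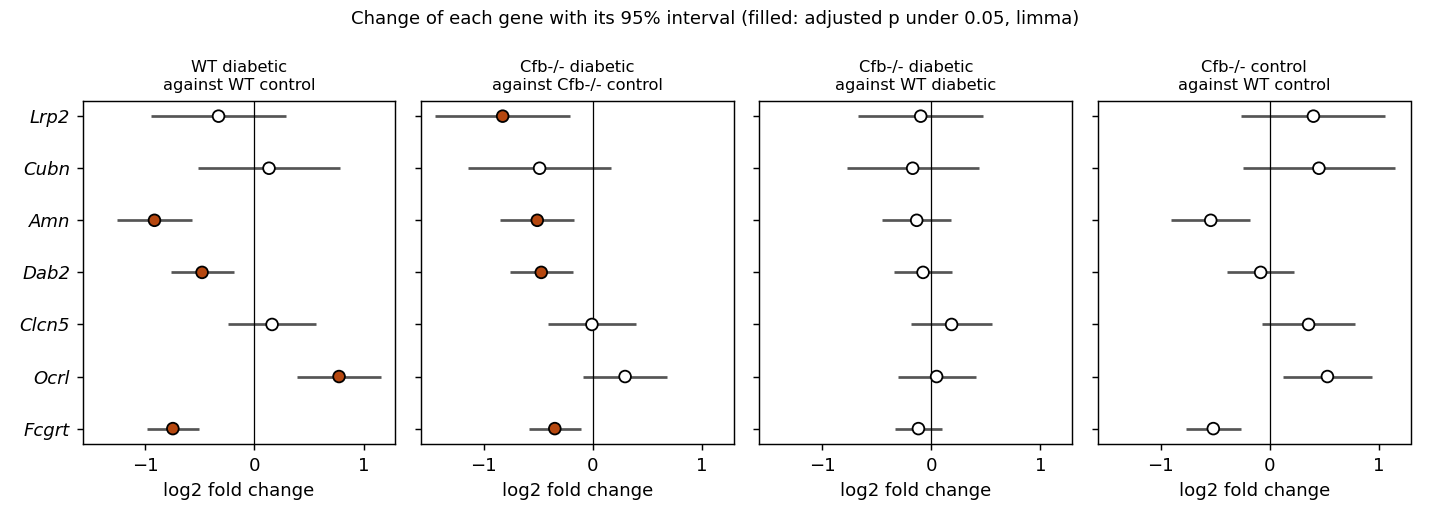
Log2 fold change (x axis) of each endocytosis gene (y axis) with its 95% interval in 4 comparisons from the limma fit, with filled points for an adjusted p under 0.05. In each diabetes comparison 4 genes are filled, and in the genotype comparisons none is.

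**Figure D4:**
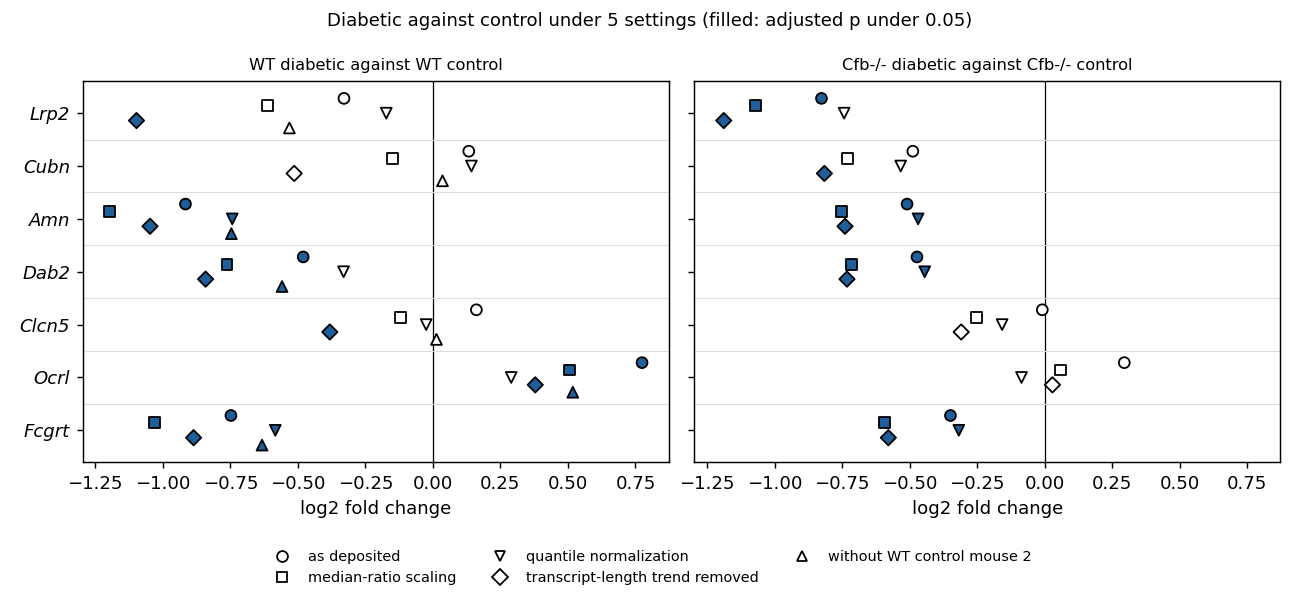
Log2 fold change (x axis) of each endocytosis gene (y axis) in diabetic against control mice under 5 settings, with filled symbols for an adjusted p under 0.05. The WT control mouse left out has no part in the Cfb-/- comparison, which shows 4 settings. Lrp2 in WT mice moves from -0.33 to -1.10 when the length trend is removed, whereas Amn and Fcgrt are filled under every setting shown.

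The changes were set beside the loss of other proximal tubule transcripts by taking the log2 ratio of each gene to the mean of the 20 proximal tubule markers. That mean fell from 8.75 in WT control to 7.67 in WT diabetic mice, and from 8.64 to 7.44 in Cfb-/- mice. The median log2 change of all genes was 0.29 and 0.22. A gene whose level does not change therefore gains in this ratio, and the share of all genes without overlap was not computed. The overlaps below describe the 7 genes and do not set them apart from other genes. In WT mice this ratio was -2.02 ± 0.31 (SD, n = 3) in control and -1.27 ± 0.14 (n = 4) in diabetic mice for Lrp2, and -3.93 ± 0.28 and -2.72 ± 0.19 for Cubn. It was -2.25 ± 0.06 and -1.66 ± 0.17 for Dab2, -5.35 ± 0.22 and -4.11 ± 0.19 for Clcn5, and -7.64 ± 0.37 and -5.79 ± 0.24 for Ocrl. For these 5 genes every WT diabetic mouse was above every WT control mouse, whereas the groups overlapped for Amn, at -1.81 ± 0.43 and -1.65 ± 0.23, and for Fcgrt, at -1.87 ± 0.30 and -1.55 ± 0.26. In Cfb-/- mice the ratio was -2.24 ± 0.21 (n = 3) and -1.55 ± 0.34 (n = 4) for Amn, -2.23 ± 0.21 and -1.50 ± 0.24 for Dab2, and -2.28 ± 0.09 and -1.43 ± 0.36 for Fcgrt. It was -4.88 ± 0.26 and -3.69 ± 0.31 for Clcn5 and -7.00 ± 0.22 and -5.50 ± 0.55 for Ocrl. These 5 genes were without overlap in Cfb-/- mice, with the diabetic mice higher. The Cfb-/- groups overlapped for Lrp2, at -1.51 ± 0.24 and -1.14 ± 0.35, and for Cubn, at -3.37 ± 0.38 and -2.66 ± 0.37. With the marker mean as a covariate none of the 7 genes was called in either diabetes comparison. In all, 300 genes in WT (2.01%) and 33 genes in Cfb-/- mice (0.221%) were called, against 46.1% and 33.8% without the covariate. The marker mean was 8.57 to 8.81 in control and 6.86 to 7.92 in diabetic mice, without overlap. The fit therefore cannot separate the loss of markers from diabetes. In that fit the log2 change of Lrp2 was 1.08 (adjusted p = 0.0944) in WT and 0.74 (adjusted p = 0.488) in Cfb-/- mice, opposite in sign to the fit without the covariate, and Amn stayed at -0.70 (adjusted p = 0.158) and Fcgrt at -0.64 (adjusted p = 0.0975) in WT mice.

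Loss of CFB was examined in diabetic mice, where the study placed its main question. No endocytosis gene passed the test between Cfb-/- and WT diabetic mice: 0 of 7 were called by limma, against 0.00671% of all genes, and 0 were under 0.05 before adjustment, against 3% of all genes. The single gene called was Cfb itself, with a log2 difference of -5.65 (adjusted p = 6.24e-10). The log2 differences were -0.10 for Lrp2 (95% interval -0.67 to 0.47), -0.17 for Cubn (-0.77 to 0.43), -0.13 for Amn (-0.45 to 0.18), and -0.08 for Dab2 (-0.34 to 0.19). They were 0.19 for Clcn5 (-0.19 to 0.56), 0.05 for Ocrl (-0.31 to 0.40), and -0.12 for Fcgrt (-0.34 to 0.10). The groups overlapped for all 7 genes, where 2.75% of all genes had groups without overlap, and the intervals for Fcgrt and Dab2 were the narrowest. The spread of Lrp2 was wider in Cfb-/- diabetic mice (coefficient of variation 43.5%) than in WT diabetic mice (19.4%), from the low pair described above, and this difference in spread was not tested.

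In the control mice, Cfb-/- and WT were compared to see whether the deletion alone moved these genes. None of the 7 was called by limma, where 0.00671% of all genes were. At an unadjusted p under 0.05, which 17.5% of all genes passed, were Fcgrt (log2 difference -0.52, SE 0.12, adjusted p = 0.223), Amn (-0.54, SE 0.17, adjusted p = 0.244), and Ocrl (0.53, SE 0.19, adjusted p = 0.249). Fcgrt was lower and Ocrl higher in every Cfb-/- control mouse than in every WT control mouse, where 13.8% of all genes had groups without overlap. The exact two-sided permutation p was 0.1 for both, the smallest that 3 mice against 3 allow. Without WT control mouse 1, Amn (-0.72, adjusted p = 0.0271) and Fcgrt (-0.63, adjusted p = 0.0228) were called, and so were 1724 genes in all (11.6%). Without WT control mouse 2, the values were -0.37 for Amn, -0.40 for Fcgrt, and 0.27 for Ocrl, and none was called. For the long genes, Lrp2 (0.40) and Cubn (0.45) turned to -0.17 and -0.0063 once the length trend was removed, and Clcn5 to 0.000092. Without WT control mouse 2 the 3 values were 0.20, 0.35, and 0.21, and none of these values was called.

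Whether diabetes acted differently with and without CFB was tested as an interaction. No gene of the 7 was called, and 0% of all genes were (limma), with 861 genes at an unadjusted p under 0.05. Before adjustment, Fcgrt passed 0.05, as did 5.77% of all genes, with an interaction of 0.40 on the log2 scale (95% interval 0.06 to 0.73, adjusted p = 0.779 by limma). The interaction was 0.41 for Amn (95% interval -0.07 to 0.89), -0.48 for Ocrl (-1.02 to 0.06), -0.50 for Lrp2 (-1.37 to 0.38), and -0.62 for Cubn (-1.54 to 0.30). With 1 mouse left out at a time, the interaction of Lrp2 ranged from -0.70 (without Cfb-/- diabetic mouse 3) to -0.28 (without Cfb-/- diabetic mouse 2), and that of Cubn from -0.84 to -0.39 with the same mice left out. That of Ocrl ranged from -0.61 (without WT control mouse 3) to -0.22 (without WT control mouse 2), that of Amn from 0.24 (without WT control mouse 2) to 0.59 (without WT control mouse 1), and that of Fcgrt from 0.28 to 0.51 with the same 2 mice left out as for Amn. No endocytosis gene was called in any of these fits. For the long genes, the interaction without WT control mouse 2 was -0.30 for Lrp2, -0.52 for Cubn, and -0.022 for Clcn5. With the length trend removed it was -0.091, -0.30, and 0.072. The diabetes comparisons of the 2 genotypes used separate control mice. Lrp2 was called in Cfb-/- mice only, and Ocrl in WT mice only. The interaction tests this difference, and it was called for neither gene (adjusted p = 0.786 for Lrp2 and 0.779 for Ocrl, limma).

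The wider pathway was followed with 6 lists holding 82 genes, of which 78 were tested. In WT diabetic mice 26 rose and 9 fell (44.9% called), and in Cfb-/- diabetic mice 22 rose and 7 fell (37.2% called). On this deposited scale the shares were close to the 46.1% and 33.8% over all genes. The direction depended on the scale: with median-ratio scaling 17 rose and 29 fell in WT mice, and with the length trend removed 15 rose and 34 fell. These are 59% and 62.8% called, above the 45.2% and 45% over all genes. Of all genes, 3378 rose and 3349 fell with median-ratio scaling, and 2976 rose and 3511 fell with the trend removed. In Cfb-/- mice the shares were 35.9% against 32.6% of all genes, and 47.4% against 37.8%. The same shares over all genes stand beside the counts of single lists below. Of 16 clathrin coat and adaptor genes, 4 rose and 1 fell in WT diabetic mice (median log2 change 0.19), but 2 rose and 5 fell with median-ratio scaling and 0 rose and 7 fell with the length trend removed. In Cfb-/- diabetic mice 5 rose and 1 fell, against 1 and 1 with median-ratio scaling and 2 and 4 with the trend removed. Lrpap1, the chaperone that escorts megalin through the secretory pathway, was the one that fell in both genotypes, by 0.77 (adjusted p = 0.000160) and by 0.70 (adjusted p = 0.000346). Ap2b1, a subunit of the clathrin adaptor complex, rose by 0.59 (adjusted p = 0.00297) and 0.45 (adjusted p = 0.0176), and Dnm1, a dynamin that pinches off vesicles, rose by 1.16 (adjusted p = 0.0112) and 1.32 (adjusted p = 0.00645) from a mean of only 0.309 FPKM in WT control mice. Both rises are on the deposited scale, whose median gene is itself above 0.

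Among 16 apical endosome and recycling genes, 4 rose and 2 fell in WT diabetic mice, and 2 rose and 2 fell in Cfb-/- diabetic mice. With median-ratio scaling 1 rose and 7 fell in WT and 1 rose and 5 fell in Cfb-/- mice, and with the length trend removed 1 rose and 8 fell in each genotype. Pip5k1a, a kinase that makes the lipid that Ocrl removes, rose by 0.76 (adjusted p = 0.000864) and 0.70 (adjusted p = 0.00191). Appl1, an early endosome protein that binds Ocrl, rose by 0.59 (adjusted p = 0.00652) in WT mice, while Ehd1 and Rab4a, both of endosome recycling, fell by 0.41 (adjusted p = 0.00562) and by 0.39 (adjusted p = 0.00919). Inpp5b, the closest relative of Ocrl, had a log2 change of -0.36 (adjusted p = 0.0642) in WT mice and fell by 0.48 (adjusted p = 0.0246) in Cfb-/- mice. The FPKM ratio of Inpp5b to Ocrl was 6.10 to 9.53 in WT control and 3.17 to 4.20 in WT diabetic mice. It was 4.42 to 6.13 in Cfb-/- control and 2.46 to 4.07 in Cfb-/- diabetic mice. The groups did not overlap in either genotype, and the share of all gene pairs with such a ratio was not computed. Inpp5b remained the more abundant of the pair in all 14 mice.

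Of 16 genes for endosomal acidification, 2 rose and 3 fell in WT diabetic mice, and 1 rose and 1 fell in Cfb-/- diabetic mice. With median-ratio scaling 0 rose and 9 fell in WT and 1 rose and 3 fell in Cfb-/- mice, and with the length trend removed 0 rose and 10 fell in WT and 1 rose and 4 fell in Cfb-/- mice. Atp6v1b2, a subunit of the proton pump, fell in both genotypes, by 0.41 (adjusted p = 0.0214) and by 0.42 (adjusted p = 0.0225). Atp6v0a1, another pump subunit, rose by 0.40 (adjusted p = 0.00453) and 0.51 (adjusted p = 0.00114). In WT mice, the pump-associated Atp6ap2 rose by 0.38 (adjusted p = 0.0148) and the pump subunit Atp6v1g1 fell by 0.36 (adjusted p = 0.0124). Slc9a3, the sodium-proton exchanger of the brush border and endosomes, had a log2 change of -0.08 (adjusted p = 0.843) and -0.55 (adjusted p = 0.147), and Clcn4, a relative of Clcn5, had -0.04 (adjusted p = 0.739) and -0.16 (adjusted p = 0.190).

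The kidney transcripts of proteins that megalin and cubilin take up were followed as a list of 14 ligands. Of the 11 that were tested, 7 rose and 1 fell in each genotype, with a median log2 change of 1.34 in WT and 0.70 in Cfb-/- mice. Gc, the vitamin D binding protein, rose by 4.39 (SE 0.36, adjusted p = 2.41e-06) in WT and 4.71 (SE 0.36, adjusted p = 1.61e-06) in Cfb-/- mice. Lcn2, an iron-siderophore carrier of injured tubule that is also in the list of injury markers, rose by 5.92 (SE 0.43, adjusted p = 7.31e-07) and 4.26 (SE 0.43, adjusted p = 9.29e-06). Rbp4, the retinol carrier, rose by 2.21 (adjusted p = 0.000260) in WT mice and had a log2 change of 0.43 (adjusted p = 0.377) in Cfb-/- mice, at a mean of 0.257 FPKM in WT control mice. Adipocytes also express Rbp4. Of the 4 tested adipocyte markers, 4 rose in WT (median log2 change 2.59) and 1 rose in Cfb-/- mice (median -1.07). The 5 listed adipocyte markers summed to 18.3 to 33.0 FPKM in WT control and 54.4 to 96.2 in WT diabetic mice, and to 16.1 to 38.3 in Cfb-/- control and 32.1 to 43.9 in Cfb-/- diabetic mice. Plin1 and Lep were listed at 0 in all WT control and all Cfb-/- diabetic mice. The 5 urothelium markers, of which 5 rose in WT and 0 passed the test in Cfb-/- mice, summed to 0.279 to 0.610 FPKM in WT control, 0.690 to 45.7 in WT diabetic, 0.607 to 8.77 in Cfb-/- control, and 1.22 to 3.09 in Cfb-/- diabetic mice. The part of either cell type in the Rbp4 level was not tested. Tcn2, the vitamin B12 carrier transcobalamin, fell by 0.87 (adjusted p = 0.000229) and by 0.90 (adjusted p = 0.000199), and had a mean of 670.2 FPKM in WT control mice. These are transcripts made in kidney tissue, and the amount of filtered protein was not measured. Gif, the mouse gene for gastric intrinsic factor, and Scgb1a1 were listed at 0 in every mouse.

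B2m, the light chain partner of Fcgrt, rose by 1.43 (SE 0.15, adjusted p = 1.06e-05) in WT and 1.55 (SE 0.15, adjusted p = 6.47e-06) in Cfb-/- mice, while Fcgrt fell. The FPKM ratio of Fcgrt to B2m was 0.300 to 0.341 in WT control and 0.0607 to 0.0798 in WT diabetic mice, and 0.221 to 0.271 in Cfb-/- control and 0.0498 to 0.0826 in Cfb-/- diabetic mice. B2m is expressed by all nucleated cells as part of class I molecules. The 6 macrophage markers summed to 49.0 to 79.8 FPKM in control mice and to 194 to 359 FPKM in diabetic mice, and their part in the B2m level was not tested. Among the Fc gamma receptors, which bind IgG on leukocytes, Fcgr1 (2.78 and 2.71), Fcgr3 (1.78 and 2.08), and Fcgr4 (1.26 and 1.95) rose on the log2 scale in WT and in Cfb-/- mice, with adjusted p values up to 0.000448. The inhibitory receptor Fcgr2b, fell by 0.60 (adjusted p = 0.000363) in WT and had a log2 change of -0.27 (adjusted p = 0.0568) in Cfb-/- mice. Dab1, the neuronal relative of Dab2, rose by 1.36 (adjusted p = 0.00204) in WT mice, to a mean of 1.07 FPKM.

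Of 10 tested genes of the LDL receptor family other than Lrp2, 5 rose and 1 fell in WT diabetic mice and 3 rose and 1 fell in Cfb-/- diabetic mice. In WT mice 4 rose and 3 fell with median-ratio scaling and 3 rose and 4 fell with the length trend removed, where the median log2 change was 0.02 against 0.57 on the deposited scale, and in Cfb-/- mice 1 rose and 1 fell under both. Lrp1, a large endocytic receptor of many cell types with a transcript of 14888 bases, rose by 1.40 (SE 0.21, adjusted p = 0.000191) and 1.46 (SE 0.21, adjusted p = 0.000151). Sorl1, a sorting receptor, rose by 1.15 (adjusted p = 0.00244) and Lrp5, a Wnt coreceptor, by 0.92 (adjusted p = 0.000398) in WT mice, and Lrp8 rose by 0.88 (adjusted p = 0.0145) from under 0.1 FPKM. The Lrp1 transcript is nearly as long as that of Lrp2, whose log2 change in the same mice was -0.33 and -0.83. Lrp1 nevertheless remained far lower, at a mean of 6.70 FPKM in WT diabetic mice against 85.4 FPKM for Lrp2. The changes of single genes in this paragraph are on the deposited scale, on which long genes were low in WT control mouse 2. For Lrp1, values without that mouse or with the length trend removed are not given here.

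**Figure D5:**
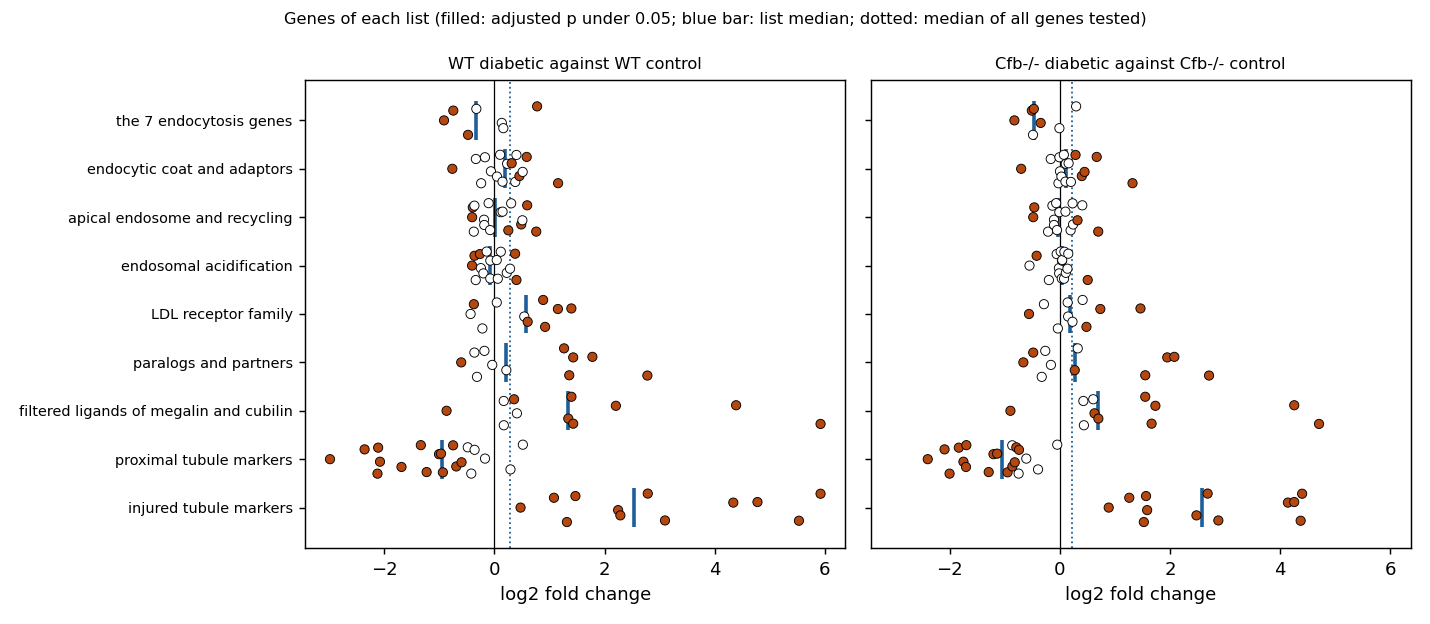
Log2 fold change (x axis) of each tested gene of 9 lists (y axis) in diabetic against control mice of each genotype, with filled points for an adjusted p under 0.05, a blue bar for the list median, and a dotted line for the median of all genes tested. The 7 endocytosis genes have medians of -0.33 and -0.47, between those of the proximal tubule markers and the lists of endosomal machinery.

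No gene of the wider lists passed a comparison of the genotypes. In Cfb-/- against WT diabetic mice, Cfb-/- against WT control mice, and the interaction, 0 of the 78 genes were called by limma. Without WT control mouse 1, 17 (21.8%) were called in the control mice, against 11.6% of all genes.

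The genes also differed in which transcripts they resembled over the 14 mice, measured as the root mean square (RMS) difference of log2 levels after each gene was centred on its mean. Of the 11374 genes compared, the 3 closest to Lrp2 were Fut9 (RMS 0.107), Lrrc19 (0.131), and Lactb2 (0.133), where Lrp2 itself varied by 0.488 about its mean. Closest to Cubn were Mgam (0.145), Chpt1 (0.157), and Ankrd13c (0.169), and closest to Amn were Nme2 (0.105), Calml4 (0.107), and Khk (0.113). Dab2 was most like Atp6v1b2 (0.0851), the proton pump subunit named above, followed by Suclg2 (0.103) and Smpdl3a (0.106). Clcn5 was closest to Steap2 (0.0864), Sec16a (0.0865), and Bcl2l13 (0.0927). Ocrl was closest to Traf3 (0.0803), Ppip5k1 (0.0910), and Fryl (0.0982), and Fcgrt to Bckdha (0.0634), Ggact (0.0878), and Mlycd (0.0923). In the order named, the longest transcripts of these close genes had 12134, 2820, and 4494 bases for Lrp2 and 6488, 4863, and 4836 for Cubn. They had 1012, 2403, and 1583 bases for Amn and 2825, 3367, and 1961 for Dab2. They had 10408, 8797, and 6925 bases for Clcn5, 7060, 5533, and 11340 for Ocrl, and 1899, 3756, and 2933 for Fcgrt.

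Among the 7, the most alike pairs were Amn and Fcgrt (RMS 0.154), the shortest transcripts, and Lrp2 and Cubn (0.236), the longest. Dab2 and Fcgrt, with transcripts of 4663 and 1770 bases, were nearly as alike as Lrp2 and Cubn, at 0.240. The least alike pair was Amn and Ocrl (0.801). The receptor genes Cubn and Amn, whose products form one complex, were among the less alike pairs at 0.633. Likeness over these mice includes the shared differences in group, tissue makeup, and transcript length.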

How the data were processed

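Kidney RNA of 14 mice was measured by RNA sequencing (stranded mRNA libraries, paired-end). Trimmomatic, HISAT2, Cufflinks, HTSeq, DESeq, and the build GRCm38.p6 are named, without versions, in the submitters' processing notes, and the methods name DESeq2. Per gene and mouse, the deposited values are FPKM, with sums of 330246 to 488196 per mouse. The unit is not named in the files and was read from the values, whose smallest steps shrink with transcript length. Absolute depth is unknown, and relative depth, from those steps, was 0.839 to 1. The planned count tests could not be run because the files hold no counts.

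Groups were taken from sample titles. Genes with at least 0.1 FPKM in at least 3 mice (14912 of 21878) were tested on log2(FPKM + 0.1) with limma 3.58.1 (R 4.3.3) with a mean-variance trend, all 14 mice, and a mean per group, and Benjamini-Hochberg adjustment. Single genes were tested by exact two-sided permutation (scipy 1.17.1). No 2 mice of the same group had identical values (highest correlation within a group 0.990). The fit was tested on simulated data. The members and lists were chosen with earlier results of these data known. Named genes were the 7 members, Cfb, Havcr1, Slc34a1, Slc5a2, Slc9a3, B2m, Lrpap1, Inpp5b, and Clcn4, up to 4 called genes with the largest change per list, and the 3 genes most like each member, and 1 further gene of the rule is not reported here. Tcn2, Fcgr4, and Fcgr2b were named after their values were seen. Longest transcripts come from GENCODE M21 and were known for 96.6% of tested genes. Gene positions and promoter sequences come from RefSeq (GRCm38.p6). Alternatives covered the pseudocount, the filter, 2 scalings, the groups in the fit, a replicate block, the proximal tubule marker mean as a covariate, each mouse left out, and a per-mouse quadratic trend on transcript length removed, the last chosen after the values were seen.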

Additional observations from a re-analysis of the deposited data

Results flagged for a closer look

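Ocrl in the WT diabetic mice had 1 mouse far from the other 3. Mouse 3 had 3.03 FPKM and the others 3.76 to 3.85 FPKM, so that the gap took up 0.890 of the range of the group, above Dixon's critical value for 4 mice. Groups of 3 mice were not examined, and chance alone flags about 1 in 20 of the 14 groups that were. Without mouse 3 the log2 change of Ocrl in WT mice was 0.85 (adjusted p = 0.00366, limma), beside 0.77 with it.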

How the results depend on the processing

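In WT mice, the calls of Amn, Dab2, Fcgrt, and Ocrl held with each mouse left out. After quantile normalization 2 of the 7 genes were called (35.9% of all genes). With the proximal tubule marker mean as a covariate 0 were called (2.01% of all genes). In Cfb-/- mice 0 were called with that covariate (0.221% of all genes), and 1 to 4 with a mouse left out (24.9% to 34% of all genes). The covariate cannot be separated from diabetes in these mice. In Cfb-/- against WT control mice, 0 to 2 were called with a mouse left out (0.00671% to 11.6% of all genes). Of the wider pathway genes, the covariate left 3 called in WT (3.85%) and 1 in Cfb-/- mice (1.28%). Leaving out a mouse gave 18 to 29 (23.1% to 37.2%) in Cfb-/- diabetic and 0 to 17 (0% to 21.8%) in Cfb-/- against WT control mice. Leaving out a mouse moved 0 to 3 genes to another rank of level in WT control, 2 to 3 in Cfb-/- control, and 0 to 2 in each diabetic group.

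The following log2 changes turned in sign, and the cause was not tested. With the marker covariate, Lrp2 was 1.08 and Dab2 0.046 in WT diabetic mice. In Cfb-/- diabetic mice that fit gave 0.74 for Lrp2, 1.08 for Cubn, 0.11 for Dab2, and 0.67 for Clcn5, and between diabetic genotypes it gave 0.21 for Lrp2, 0.14 for Cubn, and 0.039 for Dab2. In WT diabetic mice, Cubn was -0.15 with median-ratio scaling and -0.51 without the length trend, and Clcn5 was -0.12 with median-ratio scaling, -0.025 after quantile normalization, and -0.38 without the length trend. Quantile normalization gave -0.086 for Ocrl in Cfb-/- diabetic mice, 0.075 for Dab2 between control genotypes, and -0.11 for Dab2 in the interaction. Ocrl between diabetic genotypes was -0.0032 with median-ratio scaling, -0.016 after quantile normalization, and -0.025 without the length trend. Removing that trend gave -0.17 for Lrp2 and -0.0063 for Cubn between control genotypes and 0.072 for Clcn5 in the interaction.

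With a mouse left out, Cubn ranged from -0.00093 to 0.32 in WT and Clcn5 from -0.11 to 0.11 in Cfb-/- diabetic mice. Between diabetic genotypes the ranges were -0.30 to 0.12 for Lrp2, -0.39 to 0.059 for Cubn, -0.18 to 0.0062 for Dab2, and -0.031 to 0.098 for Ocrl, and in the interaction Dab2 ranged from -0.093 to 0.12.

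Same-numbered mice did not deviate together (correlations of -0.388 to 0.243), so the numbers were not taken as pairs. With the replicate block 4 genes were called in WT and 3 in Cfb-/- mice (Lrp2 was lost, adjusted p = 0.0557), 6278 and 4463 of all genes were called, and Clcn5 in Cfb-/- mice was 0.0061. Depth in reads is unknown, so no counting error can be given, for the low gene Ocrl in particular, and the planned count-based alternatives were not run because the files hold no counts.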
